A study of Mus musculus with 16 samples.

Results

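The interleukin-1 (IL-1) family genes examined here were 4 ligands or ligand inhibitors (Il33, Il18, Il1b and Il1rn) and 6 receptors or co-receptors (Il1r1, Il1rl1, Il18r1, Il1rap, Il1r2 and Sigirr). They were the genes of these symbols in a table of read counts, found by joining its Ensembl identifiers to the GENCODE M21 annotation of the mouse genome GRCm38. All 10 were found, among 55536 genes in all.

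RNA was sequenced from visceral fat and from red gastrocnemius, the oxidative portion of the calf muscle, of 8 female mice. Of these mice, 4 had a conditional MyD88 knockout in muscle (Conditional MusMyD88-/-, here KO, mice 139, 958, 960 and 29) and 4 were Cre-control animals (mice 131, 137, 138 and 11). Each of the 16 libraries was 1 tissue of 1 mouse, by the numbers in the subject labels. Every mouse, knockout or control, had 5 weeks of access to wheels and, after that, 8 days in a small mouse cage that restricted movement, so no group was without this treatment. The sources used here do not give the promoter that drives Cre, the strain, the age or the exons removed.

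IL-1 family cytokines are alarm signals of tissue damage and infection. An activating ligand binds a signalling receptor chain, and the pair recruits the shared co-receptor IL1RAP (or IL18RAP for IL-18). The receptors' inner TIR domains then bind the adaptor MyD88. The adaptor targeted here in muscle is thus the one that the signalling receptors of the family use. In adipose tissue IL-33 is made by stromal cells and acts on regulatory T cells, group 2 innate lymphoid cells and mast cells that carry the receptor ST2, the product of Il1rl1; in skeletal muscle it is a product of fibro-adipogenic progenitors.

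The members lie on 6 chromosomes of GRCm38. The receptors Il1r2 (chr1:40074079-40125231), Il1r1 (chr1:40225080-40317257), Il1rl1 (chr1:40429570-40465415) and Il18r1 (chr1:40465552-40500854) follow one another on the plus strand of chromosome 1. The co-receptor Il1rap is at chr16:26581704-26730117 (plus strand) and the inhibitory receptor Sigirr at chr7:141091175-141100572 (minus strand). Of the ligand genes, Il1b is at chr2:129364570-129371139 (minus strand), Il1rn at chr2:24336853-24351494, Il18 at chr9:50554827-50581840 and Il33 at chr19:29925114-29960718 (the last 3 on the plus strand).

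The promoters of Il1rl1, Il33 and Il1b are shown because IL-33 and its receptor were the ligand and receptor with the largest log2 differences between genotypes among the members tested in muscle, and Il1b was the member whose groups did not overlap there. The sequences are the 250 bases before each start site listed in RefSeq (GRCm38.p6), 5′ to 3′ on the gene's strand, with a motif match in capitals. Il1rl1 has 2 listed starts, which give its transcripts different first exons.
Il1rl1 first start, chr1:40429320-40429569: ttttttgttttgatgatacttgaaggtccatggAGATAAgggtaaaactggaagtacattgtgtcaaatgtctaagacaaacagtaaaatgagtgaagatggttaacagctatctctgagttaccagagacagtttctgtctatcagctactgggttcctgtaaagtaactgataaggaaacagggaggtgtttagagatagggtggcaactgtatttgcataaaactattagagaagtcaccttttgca
Il1rl1 second start, chr1:40439379-40439628: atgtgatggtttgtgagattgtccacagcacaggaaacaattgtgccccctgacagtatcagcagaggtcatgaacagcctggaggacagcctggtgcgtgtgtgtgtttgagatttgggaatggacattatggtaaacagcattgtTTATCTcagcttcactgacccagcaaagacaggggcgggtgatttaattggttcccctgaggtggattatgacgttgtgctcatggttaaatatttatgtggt
Il33 first start, chr19:29924863-29925112: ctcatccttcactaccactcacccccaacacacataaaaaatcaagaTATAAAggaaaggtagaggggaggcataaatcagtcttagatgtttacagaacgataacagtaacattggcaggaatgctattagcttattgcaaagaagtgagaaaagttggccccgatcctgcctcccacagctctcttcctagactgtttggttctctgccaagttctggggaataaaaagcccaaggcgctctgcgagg
Il33 second start, chr19:29945540-29945789: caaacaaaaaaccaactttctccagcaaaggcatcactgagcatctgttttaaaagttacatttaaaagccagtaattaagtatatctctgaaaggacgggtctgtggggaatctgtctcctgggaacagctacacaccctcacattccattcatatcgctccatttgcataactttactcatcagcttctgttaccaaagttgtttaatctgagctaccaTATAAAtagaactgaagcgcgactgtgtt
Il1b, chr2:129371140-129371389, minus strand: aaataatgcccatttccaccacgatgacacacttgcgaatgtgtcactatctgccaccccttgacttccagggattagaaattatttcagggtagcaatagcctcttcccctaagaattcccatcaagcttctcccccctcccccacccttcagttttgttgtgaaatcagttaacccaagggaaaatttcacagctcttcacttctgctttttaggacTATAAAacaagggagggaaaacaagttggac

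Both Il1rl1 windows hold the GATA motif AGATAA, which begins 217 bases before the first start and lies 103 bases before the second, there on the opposite strand. Over all 32851 promoter windows of this length, 9.99% hold it on either strand. The TATA motif TATAAA begins 203 and 29 bases before the 2 starts of Il33 and 31 bases before that of Il1b, and on the opposite strand 175 bases before that of Il18. Of all windows, 12.4% hold it on either strand. Windows were available for 9 of the 10 members, 16 in all, which were searched on both strands for these motifs, for the AP-1 motif TGANTCA (6.75% of windows) and for the NF-kB consensus (3.9%). Of the receptor promoters, the second window of Il1r1 held an NF-kB match, 232 bases before its start, and of the ligand promoters 1 window of Il1rn held an AP-1 match, 141 bases before. A match is a run of letters, and occupancy was not measured.

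The counts gave the depth and identity of the libraries, whose levels are stated in CPM (a gene's counts per 1e6 counts of its library). Totals were 13242243 to 19114782 counts in fat and 15203806 to 21747345 in muscle. Adiponectin (Adipoq) averaged 2737 CPM in fat and 8.54 in muscle, and muscle creatine kinase (Ckm) averaged 189 and 13223 CPM in fat and muscle. Myd88, the targeted gene, was at 2.24, 2.04, 1.68 and 1.98 CPM in KO muscle and at 2.04, 2.11, 3.42 and 2.83 CPM in control muscle. The groups overlapped, and the log2 fold change was -0.47 (SE 0.20, unadjusted p = 0.0322, adjusted p = 0.949, edgeR quasi-likelihood test). Of all genes tested in muscle, 5.04% had an unadjusted p under 0.05. Whole muscle also holds cells outside the fibres, and counts over the whole gene do not show which exons are lost. The control fat library of mouse 138 stood apart, with summed epithelial and bladder markers at 2120 CPM against 1.98 to 13.4 CPM in the other 7 fat libraries. In muscle, the control libraries of mice 131 and 11 stood apart by the gene annotated as CT010467.1, at 27974 and 19833 CPM against 16.8 to 35.2 CPM in the other 6 muscle libraries.

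Levels were first compared between genes per length, as RPKM (CPM per kilobase of exon). In fat the IL-1 receptor Il1r1 was the most abundant member, at 6.39 ± 1.07 RPKM (SD, n = 8 fat libraries), followed by the alarmin Il33 at 4.73 ± 1.82 and the cytokine Il18 at 3.89 ± 1.503 RPKM. Il1rl1 at 1.48 ± 0.396 and Sigirr at 1.39 ± 0.441 RPKM came next, and the lowest Il18 library lay above the highest Il1rl1 library. Below them came Il1rap at 0.701 ± 0.392, Il18r1 at 0.642 ± 0.709 and the decoy receptor Il1r2 at 0.401 ± 0.364 RPKM. Without mouse 138, Il18r1 averaged 0.400 ± 0.198 RPKM (n = 7). The inflammatory ligand Il1b and the receptor antagonist Il1rn were lowest, at 0.154 ± 0.0737 and 0.124 ± 0.189 RPKM, and Il1rn averaged 0.0585 ± 0.0283 RPKM without mouse 138. The order of the 10 means was the same without that library. With all 8 libraries, the step from Il18 to Il1rl1 was the only place in this order where the ranges of neighbours did not overlap.

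In muscle the order was led by Il33, at 2.13 ± 0.653 RPKM (SD, n = 8 muscle libraries), with its lowest library at 1.43 RPKM above the highest Il1r1 library at 1.26 RPKM. Il1r1 averaged 1.08 ± 0.130 RPKM. Il18 at 0.538 ± 0.218, Sigirr at 0.523 ± 0.105 and Il1rap at 0.368 ± 0.0536 RPKM followed with overlapping ranges. Il1rl1 stood below these at 0.185 ± 0.0461 RPKM, clear of Il1rap, and overlapped with Il1r2 at 0.114 ± 0.0425 RPKM. Il1b averaged 0.0951 ± 0.0444 and Il18r1 0.0350 ± 0.0143 RPKM. Il1rn was listed with 2 reads in all 8 muscle libraries together. Lengths were those of all exons of a gene merged; with the longest transcript instead, Il1rap moved up to rank 3 and Il18 down to rank 5 in muscle, while ranks 1 and 2 stayed in both tissues.

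**Figure D1:**
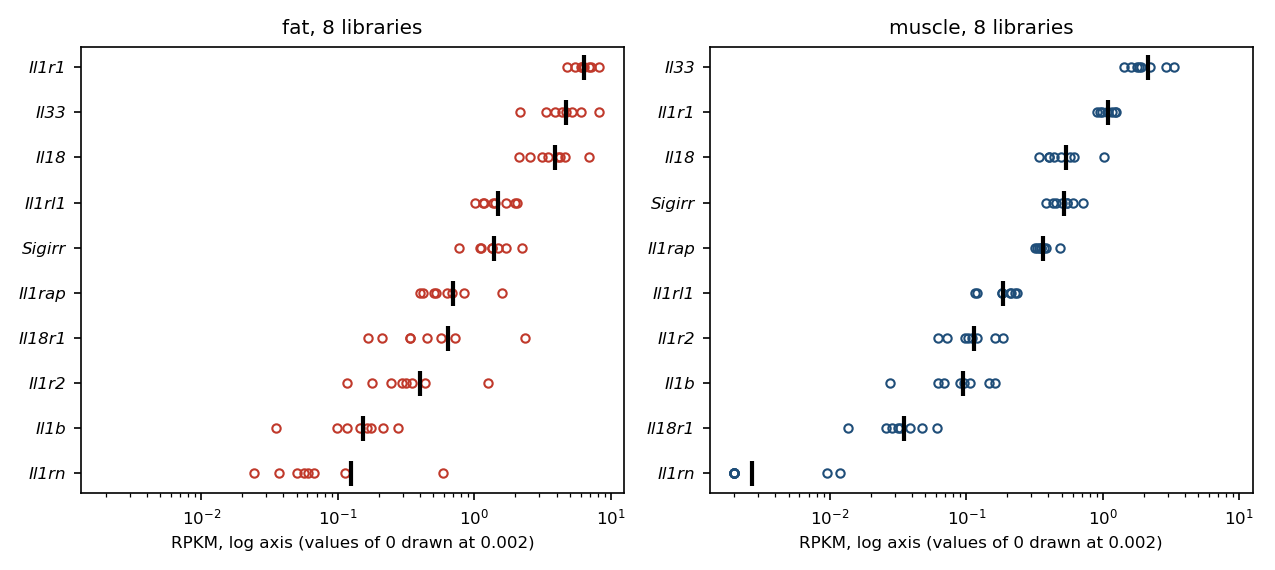
RPKM (log axis) of the 10 members in the 8 fat (left) and 8 muscle (right) libraries, ordered by the mean (black bar), with each library as a circle and values of 0 drawn at 0.002. Il1r1 leads in fat at 6.39 RPKM and Il33 in muscle at 2.13 RPKM, and Il1rn is last in both.

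The comparison of knockout with control muscle asks how the family's levels differed in the targeted tissue. No member was called changed in muscle. Of the 10 members, 5 passed the filter on low counts, and 0 of these 5 had an adjusted p under 0.05 in edgeR's quasi-likelihood test, where 0.0141% of the 14183 genes tested did. At an unadjusted p under 0.05 there was 1 member, Il33, against 5.04% of all genes tested. By limma voom 0 members were called, and likewise by DESeq2, which gave 4 of the 5 no adjusted p. The median log2 fold change was 0.08 over the 5 members and 0.00285 over all genes tested.

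Il33, released by damaged stromal cells, was at 9.53, 5.11, 8.36 and 6.44 CPM in KO muscle, against 4.67, 5.52, 5.32 and 4.12 CPM in control muscle. Of the KO libraries, 3 lay above all controls and the fourth, that of mouse 958, lay between them, so the groups overlapped. The log2 fold change was 0.50 (SE 0.17, 95% interval 0.13 to 0.87), with an unadjusted p of 0.0122 and an adjusted p of 0.907 in edgeR's quasi-likelihood test. It was between 0.37 and 0.64 when each mouse was left out in turn, lowest without mouse 139 and highest without mouse 958, and 0.39 without mice 131 and 11 together (adjusted p = 1). Without the filter on low counts the unadjusted p was 0.000542 and the adjusted p 0.126, the lowest among the alternatives, which reached up to 1.

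Markers of other cells in the muscle were set beside Il33. Summed fibroblast and fibro-adipogenic progenitor markers ranged from 785 to 1002 CPM in KO muscle and from 624 to 872 CPM in control muscle, and all 12 had a positive log2 fold change, with a median of 0.27 and 0 of them called. Summed macrophage markers ranged from 102 to 134 CPM in KO muscle and from 67.9 to 104 CPM in control muscle, and endothelial markers from 426 to 454 and from 329 to 474 CPM in KO and control muscle. None of these 3 lists had a marker at 0 in either group. Their part in the Il33 difference was not tested. In whole tissue, fewer cells of a type and less RNA per cell cannot be told apart.

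Il1rl1, which encodes the IL-33 receptor ST2, was at 1.43, 1.25, 1.63 and 1.56 CPM in KO muscle, against 1.25, 0.797, 1.48 and 0.824 CPM in control muscle. Every KO library lay above 3 of the 4 controls, though KO mouse 958 (1.254 CPM) was nearly level with control mouse 131 (1.250 CPM). Control mouse 138 lay among the KO values, so the groups overlapped. The log2 fold change of 0.36 had an SE of 0.25 and an adjusted p of 0.949 by edgeR, with an interval of -0.17 to 0.89. Mast cells carry this receptor in abundance. Their summed markers ranged from 9.43 to 12.8 CPM in KO muscle and from 2.90 to 9.59 CPM in control muscle, with no marker at 0 in either group. All 5 mast cell markers tested had a positive log2 fold change (median 0.90) and 0 were called. Their part in the Il1rl1 values was not tested.

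The ligand Il1b, a product of activated macrophages and neutrophils, did not pass the filter in muscle. Its reads were 5, 6, 4 and 4 in KO muscle and 2, 3, 1 and 2 in control muscle, which is 0.311, 0.279, 0.204 and 0.184 CPM in KO muscle and 0.132, 0.171, 0.0527 and 0.118 CPM in control muscle. Every KO library lay above every control library, the only member of the 10 for which the groups did not overlap. No member that passed the filter had such groups. Of the 14183 genes that passed it in muscle, 4.27% did, a share that leaves out genes below the filter, such as Il1b. The ratio of the summed Il1b reads, 19 in KO and 8 in control muscle, was 2.07. Its exact 95% interval of 0.864 to 5.46 covers counting error only. With no filter on low counts edgeR gave an adjusted p of 0.775. Summed neutrophil markers ranged from 1.37 to 2.23 CPM in KO muscle, with Camp at 0, and from 0.569 to 1.12 CPM in control muscle, with Ly6g, Ngp and Camp at 0. Their part in the Il1b values was not tested.

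The signalling receptor Il1r1 was steady across muscle libraries, at 7.48, 7.80, 5.76 and 8.001 CPM in KO muscle against 6.25, 6.95, 6.80 and 6.06 CPM in control muscle. The groups overlapped, with KO mouse 960 lowest of all 8, and the interval of the log2 fold change ran from -0.18 to 0.35 (estimate 0.08, adjusted p = 0.971, edgeR). Il1rap, the shared co-receptor, was at 3.61, 3.86, 5.56 and 4.0005 CPM in KO muscle and 4.01, 4.38, 4.22 and 3.77 CPM in control muscle. Mouse 960 was the highest, and the other KO values lay around the controls, with a log2 fold change of -0.01 (SE 0.16, adjusted p = 0.998, edgeR). Sigirr, which dampens IL-1 and Toll-like receptor signalling, was at 2.18, 1.67, 1.17 and 1.66 CPM in KO muscle and 1.38, 1.54, 1.32 and 1.83 CPM in control muscle. KO mice held both its highest and its lowest value, and the log2 fold change was 0.06 (SE 0.22, adjusted p = 0.992, edgeR).

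The other members were too low in muscle for the test. Il18, whose product is cut to its active form by caspase-1, was at 1.06, 0.418, 0.510 and 0.414 CPM in KO muscle and 0.592, 0.456, 0.632 and 0.353 CPM in control muscle. Mouse 139 was above all others and the remaining values interleaved. Il1r2, which binds IL-1 without signalling, ranged from 0.138 to 0.357 CPM in KO muscle and from 0.118 to 0.228 CPM in control muscle. Il18r1, the ligand-binding IL-18 receptor chain, ranged from 0.125 to 0.186 CPM in KO muscle and from 0.0658 to 0.294 CPM in control muscle. The IL-1 antagonist Il1rn had 0 reads in the 4 KO libraries, which allows up to 0.0380 CPM over the group, and 2 reads in the control libraries.

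**Figure D2:**
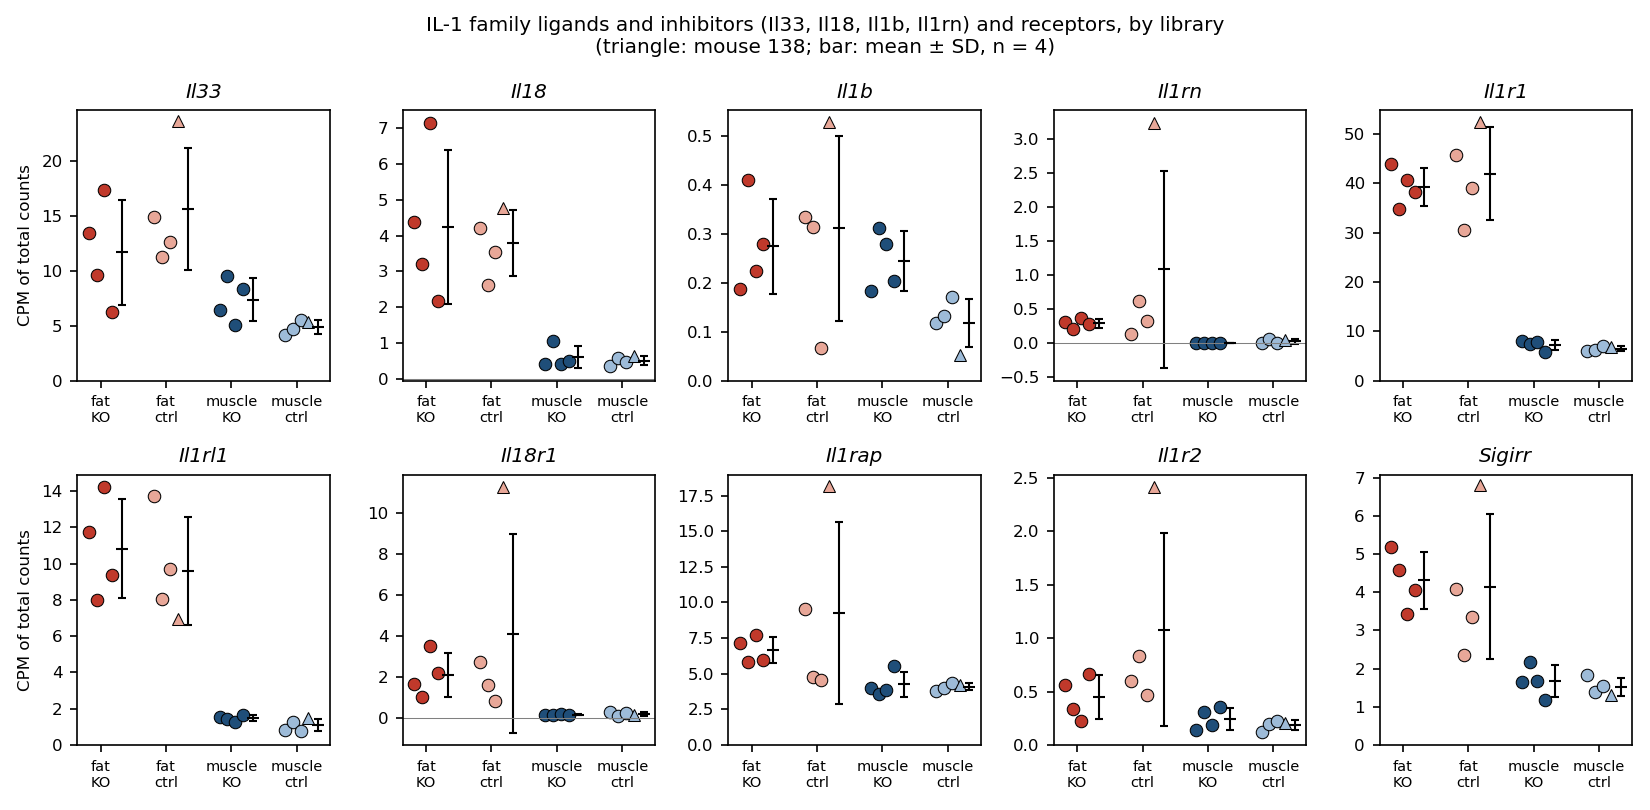
CPM of total counts for each member (1 panel each, own linear axis) in KO and control fat (red, pale red) and KO and control muscle (dark and pale blue), with each library as a point, mouse 138 as a triangle and the bar as mean ± SD of 4 libraries. Il33 in muscle averages 7.36 CPM in KO and 4.91 CPM in control mice, and the control fat library of mouse 138 is above the other fat libraries for 8 members.

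Fat was the tissue outside the knockout, and its comparison asks whether the family differed there in mice labelled as muscle knockouts. No member was called changed in fat: 7 passed the filter, 0 were called in edgeR's quasi-likelihood test, and 0 had an unadjusted p under 0.05. Of the 16323 genes tested 0.00613% were called and 7.99% had an unadjusted p under 0.05. DESeq2 and limma voom called 0 members as well. No member had groups that did not overlap, against 4.80% of genes tested. The median log2 fold change was -0.04 over the 7 members and -0.01 over all genes tested.

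Il33 was at 9.61, 17.4, 6.25 and 13.4 CPM in KO fat, against 11.3, 12.7, 23.6 and 14.9 CPM in control fat. The lowest values were in KO mice 960 and 139 and the highest in control mouse 138, with KO mouse 958 second. The log2 fold change was -0.36 (SE 0.28, interval -1.02 to 0.29, adjusted p = 0.714, edgeR), and -0.22 without mouse 138. Il18 was at 3.20, 7.16, 2.17 and 4.38 CPM in KO fat and 2.62, 3.55, 4.76 and 4.22 CPM in control fat. KO mice held its extremes, and the log2 fold change was 0.20 (SE 0.33, adjusted p = 0.877, edgeR).

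Il1r1 was at 34.7, 40.6, 38.3 and 43.8 CPM in KO fat and 30.5, 39.1, 52.5 and 45.8 CPM in control fat. The KO values all fell inside the range of the controls. Its interval was the narrowest of the members in fat, -0.29 to 0.21 on the log2 scale around -0.04 (adjusted p = 0.924, edgeR). Il1rl1 was at 7.98, 14.2, 9.37 and 11.8 CPM in KO fat and 8.06, 9.72, 6.95 and 13.7 CPM in control fat, with a log2 fold change of 0.18 (SE 0.27, adjusted p = 0.861, edgeR) that was -0.00475 without mouse 138. Mast cell markers summed to 24.6 to 66.9 CPM in KO fat and 36.4 to 44.1 CPM in control fat.

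The control values of Il18r1 and Il1rap in fat rested on mouse 138. Il18r1 was at 1.02, 3.50, 2.17 and 1.63 CPM in KO fat and 1.62, 0.804, 11.3 and 2.74 CPM in control fat. Only mouse 138 lay outside the KO range on the high side, and the log2 fold change was -0.81 with it (SE 0.71, adjusted p = 0.744, edgeR) and 0.21 without it. Il1rap was at 5.80, 7.75, 5.97 and 7.13 CPM in KO fat and 4.76, 4.56, 18.2 and 9.57 CPM in control fat. The controls spread to both sides of the KO values, and the log2 fold change was -0.36 with mouse 138 (SE 0.36, adjusted p = 0.766, edgeR) and 0.04 without it. Sigirr was at 4.57, 3.43, 4.07 and 5.19 CPM in KO fat and 2.35, 3.35, 6.80 and 4.08 CPM in control fat, with a log2 fold change of 0.15 (SE 0.26, adjusted p = 0.88, edgeR) that was 0.37 without mouse 138.

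The antagonist Il1rn and the decoy receptor Il1r2, both of which block IL-1, did not pass the filter in fat. Il1rn was at 0.205, 0.373, 0.279 and 0.313 CPM in KO fat and 0.628, 0.335, 3.25 and 0.134 CPM in control fat. Its summed reads, 18 in KO and 62 in control fat, gave a ratio of 0.291 (exact interval 0.162 to 0.499, counting error only). Without mouse 138 there were 18 and 19 reads in KO and control fat and the ratio was 0.748 (0.370 to 1.51), so the low ratio rested on that library. Il1r2 was at 0.341, 0.224, 0.669 and 0.563 CPM in KO fat and 0.837, 0.469, 2.42 and 0.602 CPM in control fat. Its ratio was 0.455 (0.283 to 0.716) with mouse 138 and 0.716 (0.418 to 1.222) without it. Il1b had 6, 3, 5 and 3 reads in KO fat and 6, 1, 7 and 5 reads in control fat, a ratio of 0.898 (0.438 to 1.82) that was 1.12 (0.504 to 2.57) without mouse 138.

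**Figure D3:**
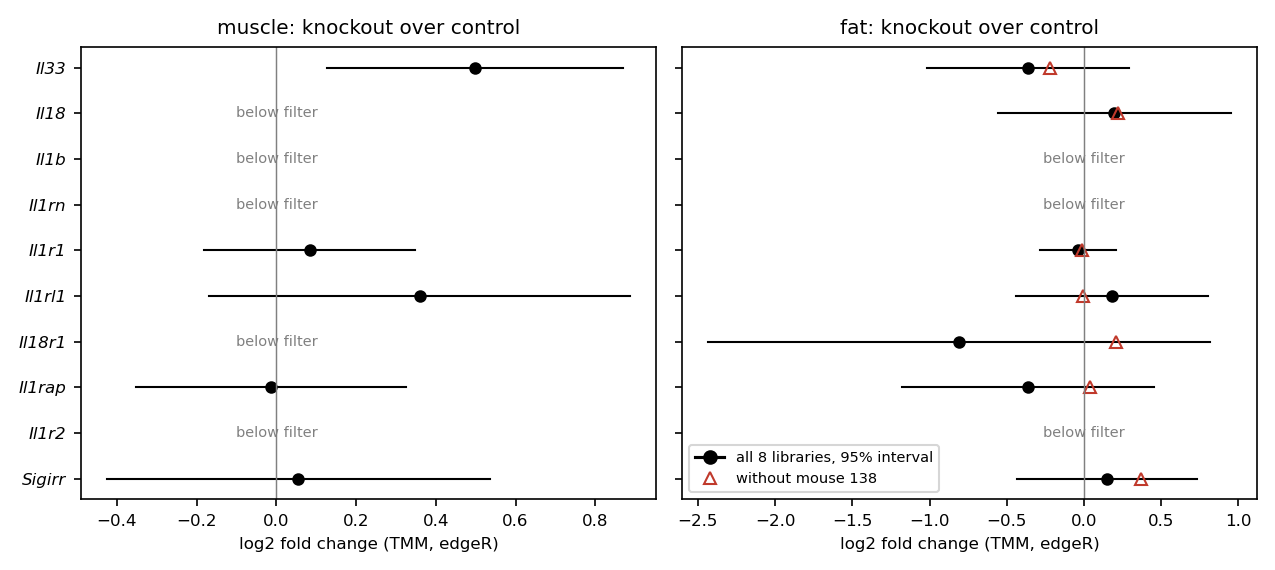
Log2 fold change of each member, KO over control (x axis), in muscle (left) and fat (right), from edgeR with TMM scaling, where dots and lines are estimates and 95% intervals and red triangles leave out mouse 138. In muscle the interval of Il33 lies above 0, from 0.13 to 0.87, with an adjusted p of 0.907, and in fat Il18r1 moves between -0.81 and 0.21 with that mouse in or out.

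An interaction term, fitted to all 16 libraries, tested whether the knockout difference was larger in muscle than in fat. No gene of 17084 was called (0%) in edgeR's quasi-likelihood test, while 7.19% had an unadjusted p under 0.05, and no member of the 7 tested was called by edgeR, DESeq2 (which gave Il18r1 no adjusted p) or limma voom. Il33 was the 1 member with an unadjusted p under 0.05. Its log2 fold change was 0.88 higher in muscle than in fat (SE 0.35, interval 0.12 to 1.63, unadjusted p = 0.0254, adjusted p = 0.673). This difference was between 0.61 and 1.25 when each mouse was left out in turn. The control fat library of mouse 138, at 23.6 CPM of Il33, is part of it. The estimates in the tissues had opposite signs, 0.50 in muscle and -0.36 in fat. The fibroblast and progenitor markers had a median interaction of 0.66, with 11 of 12 positive, and the macrophage markers 0.63, with 12 of 12 positive, against 0.03 over all genes tested. In fat alone the fibroblast markers had a median log2 fold change of -0.40, KO over control. Their sum was 11136 CPM in control mouse 138, against 2556 to 5600 CPM in the other 7 fat libraries. The marker medians in fat and in the interaction were not computed without that library. The part of the fibroblast and macrophage markers in the Il33 interaction was not tested. For the other 6 members the interaction ranged from -0.09 for Sigirr to 0.43 for Il18r1.

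The tissues themselves differed far more than the genotypes. Of the 7 members that passed the filter over all 16 libraries, 4 were called higher in fat than in muscle and 0 lower, where 44.0% of the 17084 genes tested were called higher and 35.7% lower. These 4 were Il1r1, Il1rl1, Il18r1 and Il18, and each was called under all 21 alternatives run. Il18 and Il18r1 passed the filter only through their fat libraries, which sets their direction, and Il1r2, Il1b and Il1rn did not pass it. Of the 5 members also tested within muscle, 2 were called higher in fat, Il1r1 and Il1rl1, and 0 lower. Most genes differed between the tissues, so the count of 4 in 7 by itself says little about the family.

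Il1r1 averaged 40.7 ± 6.79 CPM in fat and 6.89 ± 0.828 CPM in muscle (SD, n = 8 each), and in each mouse the fat library was 4.64 to 7.72 times the muscle library. The log2 fold change with TMM scaling was 1.35 (SE 0.08, adjusted p = 2.21e-10, edgeR). Il1rl1 averaged 10.2 ± 2.73 CPM in fat and 1.28 ± 0.318 CPM in muscle, a log2 fold change of 1.82 (SE 0.19, adjusted p = 2.95e-07, edgeR). For both genes every fat library lay above every muscle library. Il18r1 averaged 3.09 ± 3.41 CPM in fat and 0.168 ± 0.0691 CPM in muscle. Its log2 fold change of 2.80 (SE 0.50, adjusted p = 9.8e-05, edgeR) was the highest of the 7 members. The direction of Il18r1 and of Il18 was set by the filter, which both passed only through fat. Without mouse 138 the fat level of Il18r1 averaged 1.93 CPM and its log2 fold change was 2.25. Il18 averaged 4.01 CPM in fat and 0.554 CPM in muscle, where the muscle level was 13.8% of the fat level (log2 fold change 1.64, SE 0.26, adjusted p = 2.44e-05, edgeR).

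Il33, Il1rap and Sigirr were not called with TMM scaling, and their calls, as well as the direction of Il33 and Il1rap, depended on the scaling. In CPM of total counts Il33 averaged 13.6 CPM in fat and 6.13 CPM in muscle and was higher in fat in 7 of 8 mice, Il1rap averaged 7.97 and 4.18 CPM in fat and muscle, and Sigirr 4.23 and 1.59 CPM. With TMM the log2 fold changes were -0.05 for Il33 (adjusted p = 0.781), -0.33 for Il1rap (adjusted p = 0.138) and 0.19 for Sigirr (adjusted p = 0.318), all by edgeR. With totals as the scale they were 1.17, 0.91 and 1.41, and all 7 members were called higher in fat. So were 13650 of the 17084 genes tested, so the count of 7 in 7 says little about the family. The TMM factors were 1.34 to 1.89 in fat and 0.615 to 0.681 in muscle, and the median of all genes was 0.16 with TMM and 1.36 with totals. A change of scale shifts all genes about alike, so values relative to the median of all genes barely move by construction. Il1r1 was 1.20 above that median under both, Il18r1 2.65 above it with TMM and 2.69 with totals. Il1rap was at -0.49 with TMM and -0.45 with totals. Of all genes called, 55.2% were higher in fat with TMM and 87.8% with totals.

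Without mouse 138, Il1rap was called lower in fat with TMM scaling (log2 fold change -0.53, adjusted p = 0.00452, edgeR); over its alternatives the adjusted p ran from 0.000924 to 0.329. Il1rn, with 18 and 62 reads in KO and control fat and 0 and 2 in KO and control muscle, was called higher in fat when no filter was applied (adjusted p = 0.000633, edgeR). In mean CPM its muscle level was 2.15% of its fat level. In CPM of total counts the muscle level of Il1b was 61.9% of its fat level, and it was higher in fat in 6 of 8 mice; with TMM and no filter its log2 fold change was -0.33 (adjusted p = 0.564, edgeR). Macrophage markers summed to 673 to 1314 CPM in fat and 67.9 to 134 CPM in muscle, and fibroblast markers to 2556 to 11136 CPM in fat and 624 to 1002 CPM in muscle. Their part in the tissue differences was not tested.

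**Figure D4:**
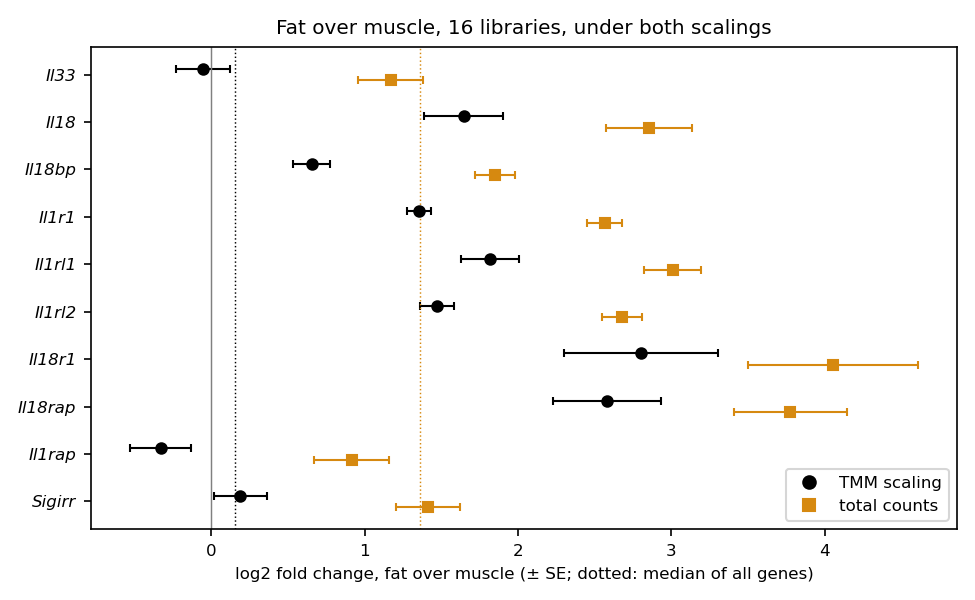
Log2 fold change, fat over muscle, ± SE over 16 libraries for the 7 members tested and for Il18bp, Il1rl2 and Il18rap, with TMM scaling (black dots) and with total counts (orange squares), where dotted lines mark the median of all genes under each. Il33, Il1rap and Sigirr lie between -0.33 and 0.19 with TMM and between 0.91 and 1.41 with totals, and Il18r1 lies farthest right under both. Il18, Il18r1 and Il18rap passed the filter only through fat, which sets their direction.

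The receptor genes on chromosome 1 form a block, of which 5 genes were tested between the tissues. Between 40074079 and 40551705 the annotation holds 6 protein-coding genes, which are Il1r2, Il1r1, Il1rl2, Il1rl1, Il18r1 and Il18rap, all on the plus strand. Il1rl2, the IL-36 receptor, averaged 13.99 ± 2.503 CPM in fat and 2.19 ± 0.329 CPM in muscle (log2 fold change 1.47, SE 0.11, adjusted p = 4.71e-09, edgeR). Il18rap, the co-receptor of IL-18, averaged 2.52 ± 0.844 CPM in fat and 0.217 ± 0.186 CPM in muscle (log2 fold change 2.58, SE 0.35, adjusted p = 5.62e-06, edgeR). With Il1r1, Il1rl1 and Il18r1 these make the 5 genes of the block tested, and all 5 were called higher in fat under the 21 alternatives run, where 44.0% of all genes tested were called higher. Il18r1 and Il18rap passed the filter only through their fat libraries, which sets their direction, so Il1r1, Il1rl2 and Il1rl1 are the 3 whose direction the filter left free. Il1rl1 ends 136 bases before Il18r1 begins. T cell, innate lymphoid and natural killer cell markers, cells known to carry IL-18 and IL-33 receptors, passed the filter only through fat for 7 of the 8 tested, which sets their direction. The other, Rora, which muscle also expresses, was called lower in fat. Il7r, among the 7 markers whose direction the filter sets, ranged from 1.88 to 4.25 CPM in fat and from 0.118 to 0.604 CPM in muscle.

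The rest of the pathway was read from lists of genes upstream and downstream of the members. Of the inflammasome and protease genes that process IL-1 and IL-18, 13 of 14 were tested and all 13 were called higher in fat, where 44.0% of all genes tested were. Of these, 7 passed the filter only through fat, which sets their direction, and the other 6 were tested within muscle too. Casp1, the protease that activates both cytokines, averaged 13.7 CPM in fat and 0.953 CPM in muscle (log2 fold change 2.68, adjusted p = 4.5e-08, edgeR). The adaptor Pycard, among the 7 that passed only through fat, averaged 5.57 CPM in fat (3.79 CPM without mouse 138) and 0.466 CPM in muscle. Of 20 signalling genes below the receptors, 11 were called higher and 7 lower in fat with TMM, against 44.0% higher and 35.7% lower over all genes tested, so the shares are near the background. Myd88 itself was higher in fat, at 16.03 CPM against 2.29 CPM in muscle (log2 fold change 1.61, SE 0.11, adjusted p = 1.33e-09, edgeR), as were the kinases Irak2 (2.03) and Irak4 (1.71). The kinase Map3k7 (TAK1) and its partners Tab1 and Tab2 were lower with TMM, at -1.002, -1.40 and -1.31. Another TAK1 partner, Tab3, went the other way and was called higher in fat (adjusted p = 3.14e-07, edgeR). It averaged 54.2 CPM in fat and 10.03 CPM in muscle. In CPM of total counts 5 of the 7 called lower (Traf6, Tollip, Map3k7, Ube2n and Ube2v1) were instead higher in fat in 8 of 8 mice, so their direction depends on the scaling.

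Of the genes that IL-1 is known to induce, 15 of 20 were tested, and 10 were called higher in fat and 0 lower, where 44.0% of all genes tested were called higher. Of the 15, 6 passed the filter only through fat, which sets their direction, and of the 9 also tested within muscle 5 were called higher in fat. The adhesion molecules Vcam1 (2.17) and Icam1 (1.29) were among these 5, while the IκBα gene Nfkbia (0.12, adjusted p = 0.507) and Socs3 (0.05, adjusted p = 0.824) did not pass. Between genotypes none of the pathway genes was called in either tissue. In KO over control muscle the induced genes had a median log2 fold change of 0.25 over 9 tested and the signalling genes -0.04 over 20, and in KO over control fat the medians were -0.23 over 15 and -0.04 over 20. The value of -0.23 was that of Icam1, at 30.9 CPM in control fat of mouse 138. Icam1 was at 13.7 to 18.5 CPM in the other control fat libraries and at 14.2 to 20.3 CPM in KO fat. The fat medians were not computed without mouse 138. The induced genes with the lowest p in muscle were Nfkbiz (0.45, unadjusted p = 0.02, adjusted p = 0.94) and Icam1 (0.33, unadjusted p = 0.047, adjusted p = 0.949), by edgeR.

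Other ligands of the family were at or near 0 in these tissues. Il1a was read in 2 of the 4 KO fat libraries, with 6 reads, and in no control fat or muscle library. The IL-36 and IL-38 genes annotated as Il1f5, Il1f6, Il1f8 and Il1f10 had 0 reads in all 16 libraries. The IL-18 binding protein Il18bp, a soluble inhibitor, was at 7.93 CPM in fat and 2.21 CPM in muscle (log2 fold change 0.65, SE 0.12, adjusted p = 0.000137, edgeR), and was called higher in fat under all 21 alternatives.

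The fat library of mouse 138 lay outside the range of the other 7 for most members. Of the 10 members, 8 were higher in its fat library than in the other 7 and 1, Il1rl1, was lower, where 51.6% of the genes tested in fat were highest and 18.7% lowest in that library. The ratio to the median of the other 7 was 10.4 for Il1rn, 6.92 for Il18r1, 4.29 for Il1r2 and 3.05 for Il1rap. It was 1.34 for Il1r1 and for Il18 and 0.715 for Il1rl1. In the same library summed smooth muscle markers were 33.6 times, mesothelial markers 7.20 times and fibroblast markers 2.76 times the median of the others, while adipocyte markers were 0.254 times and macrophage markers 0.848 times. The part of these cells in the members' values was not tested. In muscle the library of the same mouse was within the range of the other 7 for all members but Il1b, which was lowest there.

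**Figure D5:**
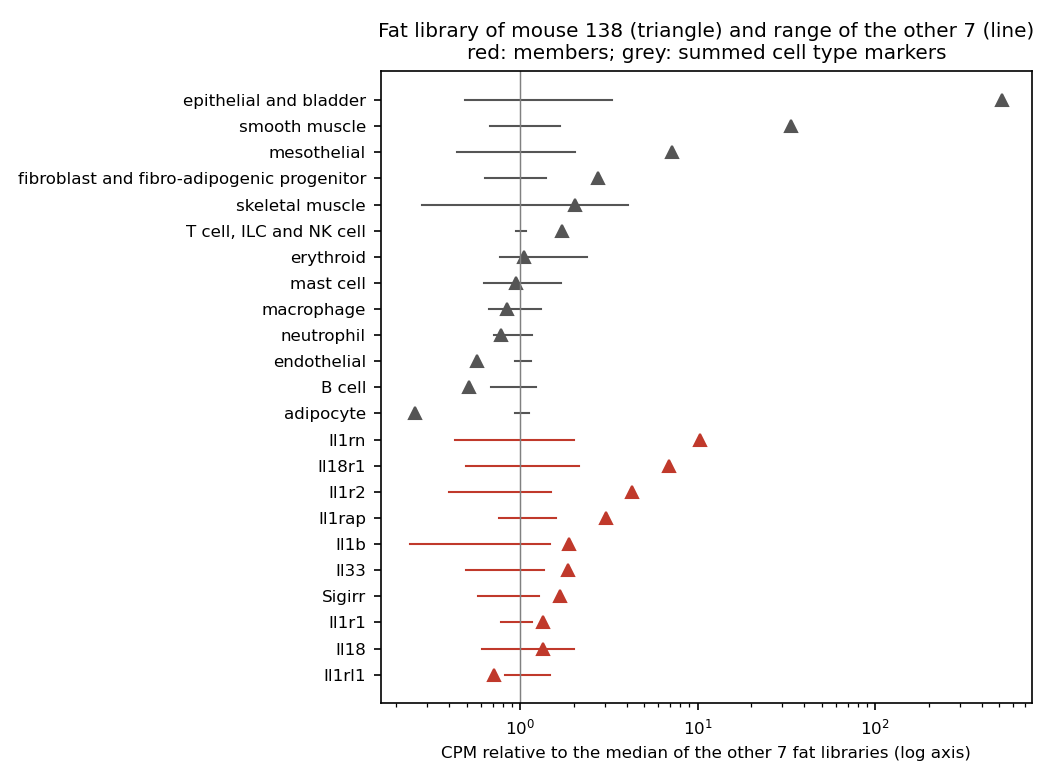
CPM in the control fat library of mouse 138 relative to the median of the other 7 fat libraries (triangles, log axis), with the range of those 7 as a line, for summed cell type markers (grey) and the 10 members (red). Epithelial and bladder markers lie highest, at 522 times the median, and of the members Il1rn at 10.4 times, while Il1rl1 lies below the range.

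The genes whose levels most resembled each member's across libraries were listed as a description, by Pearson's r of log2(CPM + 0.5) over the 8 libraries of a tissue, among 11466 protein-coding genes in muscle and 13436 in fat. In muscle the closest to Il33 was Adprhl2 (r = 0.977), to Il1rl1 Vit (0.965), to Il1r1 Inhba (0.953), to Il1rap Bcas1 (0.974) and to Sigirr Pbrm1 (0.956). In fat it was Tmem30a for Il33 (0.997, and 0.995 without mouse 138), which stayed first with that library left out, as did Rchy1 for Il1rap (0.992 and 0.989). The closest gene to Il1r1 changed with that library, being Diablo with it (0.984) and Eef2 without it (0.988), and the closest to Il18r1 was Nme6 with it (0.993) and Frg1 without it (0.984). The 8 points of a tissue include both genotypes, and no p is given.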

How the data were processed

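The authors deposited a table of raw counts per Ensembl gene, whole numbers with no scaling, with 1 column for each of the 16 libraries. The build GRCm38, featureCounts 1.6.3, STAR 2.7.0f and DESeq2 1.22.2 are named, with no role or order, per the submitters' processing notes. The sources used here state neither the strand setting nor the annotation release nor how reads with several mapping places were treated. Libraries were stranded and depleted of ribosomal RNA, per the labels' protocols. All 55536 identifiers matched GENCODE M21.

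From these counts, differences were tested in edgeR 4.0.16 (R 4.3.3), by its quasi-likelihood F test with TMM scaling, filterByExpr, robust estimation and Benjamini-Hochberg adjustment over all genes tested, called at an adjusted p under 0.05. Fits within a tissue used its 8 libraries, and the tissue comparison and the interaction used all 16. The SE was taken from F, as the size of the log2 fold change over F's square root, and intervals are 95%. Levels are CPM of total counts, and RPKM divides by merged exon length. Counts carry no molecular identifiers, so intervals on reads cover counting error only. The lowest chi-square per degree of freedom between 2 libraries of a group was 7.49, so none was taken as a duplicate.

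The mouse number pairs the tissues of an animal. Deviations of paired libraries from their group means correlated at 0.115 to 0.177 in KO mice and -0.0316 to 0.0201 in controls, over 14982 genes.

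Named genes were all members, Myd88, members of 5 pathway lists that passed or were among the 4 of their list with the lowest p in a comparison, and, by correlation, the closest protein-coding genes with a mean of at least 1 CPM. The members and lists were chosen with earlier results of these data known. The alternatives were other scalings, no filter, a minimum of 1 CPM in 4 or more libraries, voom in limma 3.58.1 (plain and with quality weights), DESeq2 1.42.0, estimation that is not robust, each mouse left out, a replicate block for the mouse, and a common fit of both tissues for genotype. Alternatives without mice 131 and 11, whose muscle libraries stood apart, and those joining the omission of mouse 138 to DESeq2 or the block, were chosen after seeing the data. The procedure was tested on simulated counts.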

Additional observations from a re-analysis of the deposited data

Results flagged for a closer look

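Of 40 groups of 4 libraries examined, 10 members in 4 groups, 2 held a library far from the other 3. Chance gives about 1 in 20, a share that 2 in 40 does not exceed. Il1rn in control fat was at 3.25 CPM in mouse 138, against 0.134 to 0.628 CPM in the other 3 control libraries. That library also held summed epithelial and bladder markers at 522 times and fibroblast markers at 2.76 times the median of the other fat libraries, and their part in the Il1rn value was not tested. Il18 in KO muscle was at 1.06 CPM in mouse 139, which is 17 reads, against 0.414 to 0.510 CPM, 9 to 10 reads, in the other 3 KO libraries. The same muscle library had the highest Il33 value of the 8, at 9.53 CPM. It also had the highest summed macrophage (134 CPM), fibroblast (1002 CPM) and adipocyte (395 CPM) markers, but not the highest mast cell or endothelial markers. The part of these cells in the Il18 value was not tested.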

How the results depend on the processing

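The 4 members called between tissues (Il1r1, Il1rl1, Il18r1 and Il18) were called under all 21 alternatives, and 0 members were called in either genotype comparison or the interaction under any. Il18r1 and Il18 passed the main filter only through fat, which sets their direction. With totals as the scale all 7 members were called higher in fat, as were 13650 of the 17084 genes tested. The mouse as replicate block left the members called between tissues at 4 and the genes called in the interaction at 0, and changed no member's call.

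Genes called changed more. In muscle, 2 became 80 with no filter, 1 with at least 1 CPM, 9 with DESeq2, 15 with DESeq2 without mouse 138, and 1 to 10 leaving out each mouse. In fat, 1 became 72 with DESeq2, 0 with voom, 9 with quality weights, 6 in 1 fit of all libraries, 330 with DESeq2 without mouse 138, 0 without mice 131 and 11, and 0 to 6 leaving out each mouse. In the interaction, 0 became 7 with DESeq2, 89 with DESeq2 without mouse 138 and 7 with the replicate block without mouse 138. The cause was not tested.

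Small differences between genotypes changed sign, none of them called. In muscle these were Il1rap (0.0568 with totals, -0.17 to 0.0616 leaving out each mouse) and Sigirr (-0.0698 to 0.18, and -0.0273 with DESeq2 without mouse 138). In fat they were Il1r1 (-0.12 to 0.00639 leaving out each mouse), Il18 (-0.16 to 0.40), Il1rap (-0.57 to 0.0392), Il1rl1 (-0.00475 to 0.39), Il18r1 (-1.15 to 0.21) and Sigirr (-0.0108 to 0.37). Quality weights gave 0.12 for Il1rap and 0.23 for Il18r1. DESeq2 without mouse 138 gave 0.0383, -0.00567 and 0.21 for Il1rap, Il1rl1 and Il18r1, and Sigirr was -0.0599 without mice 131 and 11.

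In the interaction, the ranges leaving out each mouse were -0.54 to 0.43 for Il18, -0.38 to 0.0504 for Sigirr, -0.0399 to 0.56 for Il1rap, -0.67 to 0.85 for Il18r1 and -0.14 to 0.56 for Il1rl1. Totals gave 0.0544 for Il18 and 0.0776 for Sigirr, and quality weights -0.15 for Il1rap and -0.46 for Il18r1. DESeq2 without mouse 138 gave -0.0255, -0.66 and 0.0478, and the replicate block without it -0.0965, -0.72 and 0.0580, for Il1rap, Il18r1 and Il18. Without mice 131 and 11, Il1rl1 was -0.12 and Sigirr 0.25.

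Between tissues, Il33 was 1.17 with totals, 0.0435 with upper quartiles, 0.0179 with no filter and -0.24 to 0.0766 leaving out each mouse, and Il1rap was 0.91 with totals and called lower with quality weights (-0.58).

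Depth limits Il1b, Il1rn, Il1r2 and, in muscle, Il18 and Il18r1, which had fewer than 20 reads in every muscle library. With 4 mice a genotype, the interval of the best-measured member in fat, Il1r1, still spans -0.29 to 0.21, so differences within it could not be seen. Larger differences could also stay uncalled. Il33 in muscle, at 0.50 with an interval of 0.13 to 0.87, had an adjusted p of 0.907 in edgeR's quasi-likelihood test.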
